A study of Mus musculus with 2 samples.

Results

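The receptors through which hepatocytes receive growth signals were examined in 2 populations of adult mouse hepatocytes. The genes were Egfr, Erbb2, Erbb3, Met, Mst1r, Fgfr2, Fgfr3, Fgfr4, Klb and Lifr, chosen by name as receptors for EGF, HGF, FGF and related ligands and matched by symbol, and all 10 were found among the 43280 gene symbols of the files. Mature hepatocytes (MHs) and small hepatocytes (SHs), which the study treats as a progenitor-like fraction of hepatocytes, were isolated from the same C57BL6 mice by collagenase perfusion of the liver. MHs were the cells that pelleted at low-speed centrifugation, and Percoll centrifugation removed dead cells from them. They were left unsorted, so the preparation holds the hepatocytes of that pellet and the other cells that pelleted with them. SHs were taken from the supernatant of that pellet and sorted as CD31-CD45-EpCAM-ICAM-1+ cells. Both are labelled as 20 weeks old, whereas the methods put the animals at 8 to 12 weeks, and the labels name no drug, diet or injury. By the methods 3 healthy mice gave the cells, and 1 library was made from each population.

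Adult hepatocytes rarely divide, but they enter the cell cycle after loss of liver tissue. EGF family ligands and hepatocyte growth factor, which act through the receptor tyrosine kinases EGFR and MET, are the classical mitogens of hepatocytes. FGF receptors with the co-receptor β-Klotho receive the intestinal hormone that holds down bile acid synthesis, and cytokines of the interleukin-6 family signal through gp130 and its partners, among them LIFR, to STAT3.

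The MH library had 16979136 counted reads and the SH library 42356444, which is 2.49 times as many. Levels are given as reads per 1000000 counted reads (RPM), and between genes as RPKM, which also divides by the length of the exons. Log2 ratios set SHs over MHs with 0.5 reads added to every count, and the 95% Clopper-Pearson interval came from the split of a gene's reads between the libraries. The reads carried no molecular identifiers and neither population had a replicate, so the intervals cover counting error only, no test between the populations was possible, and each difference is one between these libraries without a replicate check. A gene is called lower or higher here where the interval leaves out 0. Markers of other cells were lower in SHs. The summed level of the 10 endothelial markers was 106 RPM in MHs and 5.08 in SHs, with all 10 lower and Lyve1 at 0 reads in SHs. Of the 9 macrophage markers in the files, 8 had at least 10 reads and all 8 were lower, from a summed 21.7 RPM to 0.755, with Marco at 0 reads in SHs, and of the 10 stellate cell markers 7 had at least 10 reads and all 7 were lower, from a summed 20.7 to 2.34 RPM, with none at 0. The 6 hepatocyte markers, among them Alb and Hnf4a, summed to 74224 RPM in MHs and 78669 in SHs. All 8 markers of the periportal zone (zone 1) were higher in SHs, from a summed 8782 RPM to 11512, and all 8 of the pericentral zone (zone 3) were lower, from 3096 to 865 RPM. The part of these differences in the values of the receptors was not tested. In such libraries, fewer cells of a type and less RNA per cell cannot be told apart.

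Of the 10 receptors, 8 had at least 632 reads in each library and 2, Erbb2 and Mst1r, had fewer than 10 reads in all. Among the 8, Egfr, Met and Lifr were lower in SHs, Erbb3 and Fgfr2 were higher, and the intervals of Fgfr3, Fgfr4 and Klb included 0. By the same rule, SHs had lower levels of 15.5% and higher levels of 16.8% of the 15521 genes with at least 10 reads. The receptors had more reads than most of these genes, and over the 5055 genes with at least 1000 reads the shares were 21.1% and 31.2%. None of the 8 was at least 1.5-fold lower or higher with its interval on that side of 0, compared with 6.2% and 3.5% of genes with at least 10 reads, and 1.68% and 0.87% of those with at least 1000. Just short of this limit were Lifr, at 0.669 of its level in MHs, and Fgfr2, at 1.45-fold. The median log2 ratio of the 8 was -0.03, that of all genes tested 0.02 and that of the deeper genes 0.04.

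**Figure D1:**
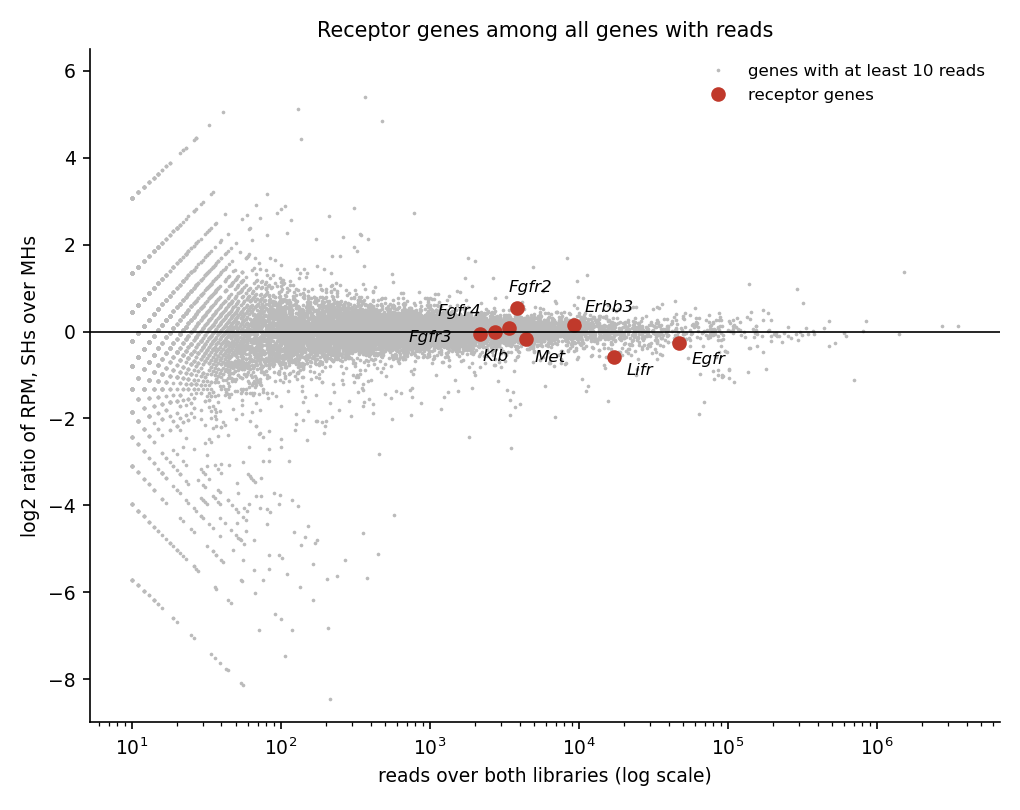
Log2 ratio of RPM in SHs over MHs (y axis) against the reads over both libraries (x axis, log scale) for the 15521 genes with at least 10 reads (grey) and the 8 receptor genes among them (red), 1 library per population. Lifr at -0.58 and Egfr at -0.27 lie under most genes with at least 1000 reads and Fgfr2 at 0.54 above them, and the other 5 lie between -0.18 and 0.16.

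Egfr, the receptor for EGF, TGFα, amphiregulin and HB-EGF, was the most abundant receptor of the 10 in both populations. It had 15355 reads in MHs and 31761 in SHs, or 904 RPM and 749.9 RPM. The SH level was the lower, by 0.27 on the log2 scale (interval -0.30 to -0.24). Among the genes with at least 1000 reads, 7.64% had a ratio as low or lower. Per length Egfr stood at 79.8 RPKM in MHs and 66.2 in SHs, above 96.1% and 96.2% of the genes with reads in the same library. Erbb3 (chr10:128567523-128589635, minus strand, in the RefSeq annotation of GRCm38.p6, as are the positions that follow), which binds neuregulins but has little kinase activity of its own and signals with a partner, went the other way. Its 2463 reads in MHs and 6867 in SHs gave 145 and 162 RPM, a log2 ratio of 0.16 (0.09 to 0.23). The reads of Erbb3 over those of Egfr in the same library do not depend on scaling, and this ratio was 0.160 in MHs but 0.216 in SHs, a log2 change of 0.43 (0.36 to 0.50). Of the summed RPKM of the 4 ErbB genes, Egfr took 76.6% in MHs and 70.8% in SHs and Erbb3 23.1% and 28.8%. Erbb2 (chr11:98412484-98437716, plus strand), which binds no ligand and serves as the partner of the other ErbB receptors, had 0 reads in MHs and 3 in SHs. Its level in MHs is limited to 0.177 RPM by the 3 reads that a count of 0 allows, no fold is given, and a difference was not detectable at this depth. Erbb4, the fourth ErbB receptor, had 62 and 177 reads, 3.65 RPM in MHs and 4.18 in SHs, and its interval included 0 (-0.23 to 0.64). The ErbB receptors of both libraries were thus nearly all Egfr and Erbb3.

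Met (chr6:17463349-17573980, plus strand), the receptor of hepatocyte growth factor, had 1385 reads in MHs and 3051 in SHs. These gave 81.6 and 72.0 RPM, lower in SHs by a log2 ratio of -0.18 (-0.27 to -0.09), and 13.7% of the deeper genes had a ratio as low. Per length it stood at 10.6 RPKM in MHs and 9.38 in SHs. Mst1r (chr9:107906858-107920383, plus strand), which encodes RON, the relative of MET that binds macrophage-stimulating protein, had 0 reads in MHs and 8 in SHs. The 8 reads were 0.189 RPM (0.0815 to 0.372), the 3 reads that 0 allows in MHs are 0.177 RPM, and the interval of the ratio included 0. Met therefore held 99.6% of the summed RPKM of this pair in SHs and all of it in MHs.

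Among the FGF receptors, Fgfr4 (chr13:55152818-55168759, plus strand), the main FGF receptor of hepatocytes, had 932 reads in MHs and 2456 in SHs. Its 54.9 and 58.0 RPM gave a log2 ratio of 0.08, with 0 inside the interval of -0.03 to 0.19. Klb (chr5:65348411-65386957, plus strand) encodes β-Klotho, which FGFR4 needs to respond to FGF15 and which FGF21 also uses. It had 788 and 1955 reads, 46.4 RPM in MHs against 46.2 in SHs, giving a log2 ratio of -0.01 (-0.13 to 0.11). The ratio of Klb to Fgfr4 reads was 0.845 in MHs against 0.796 in SHs, a log2 change of -0.09 (-0.25 to 0.07). Fgfr3 (chr5:33721724-33737068, plus strand), a receptor for FGF1, FGF9 and FGF18, had 632 and 1526 reads and stood at 37.2 RPM in MHs and 36.0 in SHs, a difference of -0.05 on the log2 scale with 0 inside the interval as well (-0.18 to 0.09). In GENCODE M21, 13.9% of its exon bases overlap a gene model on the opposite strand, and whether the counting used strand is not given in the sources used here.

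Fgfr2, a receptor for FGF1 and, in its epithelial form, for FGF7 and FGF10, had the highest ratio of the receptors. It had 834 reads in MHs and 3018 in SHs, or 49.1 and 71.3 RPM, a log2 ratio of 0.54 (0.43 to 0.65). Of the deeper genes 98.9% had a ratio as low or lower. Against Fgfr4 within the same library, the ratio of reads was 0.895 in MHs but 1.23 in SHs, a log2 change of 0.46 (0.30 to 0.61). The same comparison for Fgfr3 gave -0.13 (-0.30 to 0.05). Fgfr1, the remaining receptor of the family, had 182 and 610 reads and was higher in SHs by a log2 ratio of 0.42 (0.18 to 0.67). Of the summed RPKM of the 4 FGF receptors, Fgfr4 took 58.4% in MHs and 55.0% in SHs, Fgfr2 17.9% and 23.2%, Fgfr3 19.6% and 16.9%, and Fgfr1 4.09% and 4.90%. The exon length of Fgfr2 limits these shares, because its GENCODE M21 model includes transcripts reaching as far as the gene Ctbp2. With the coding length instead, Fgfr2 stood at 17.5 RPKM in MHs and 25.4 in SHs, and Fgfr4 at 22.9 and 24.2. The summed reads of the 4 had a log2 ratio of 0.24 (0.18 to 0.31), whereas those of the ErbB genes had -0.20 (-0.23 to -0.18). Counts per symbol do not separate the splice forms of Fgfr2, which differ in the ligands they bind.

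Lifr, the receptor subunit for leukaemia inhibitory factor and cardiotrophin-1, had the lowest ratio. It had 6442 reads in MHs and 10757 in SHs, or 379 and 254 RPM. The log2 ratio was -0.58 (-0.62 to -0.53), and 1.72% of the deeper genes had one as low. Il6st, which encodes gp130, the subunit that LIFR pairs with, was lower too, with 1612 and 3021 reads, 94.9 RPM in MHs and 71.3 in SHs, and a log2 ratio of -0.41 (-0.50 to -0.32). The ratio of Il6st to Lifr reads was 0.250 in MHs against 0.281 in SHs, a log2 change of 0.17 (0.07 to 0.26), so Lifr was the lower of the pair relative to MHs. Mouse liver also makes a secreted form of LIFR, which counts per symbol do not separate from the receptor.

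**Figure D2:**
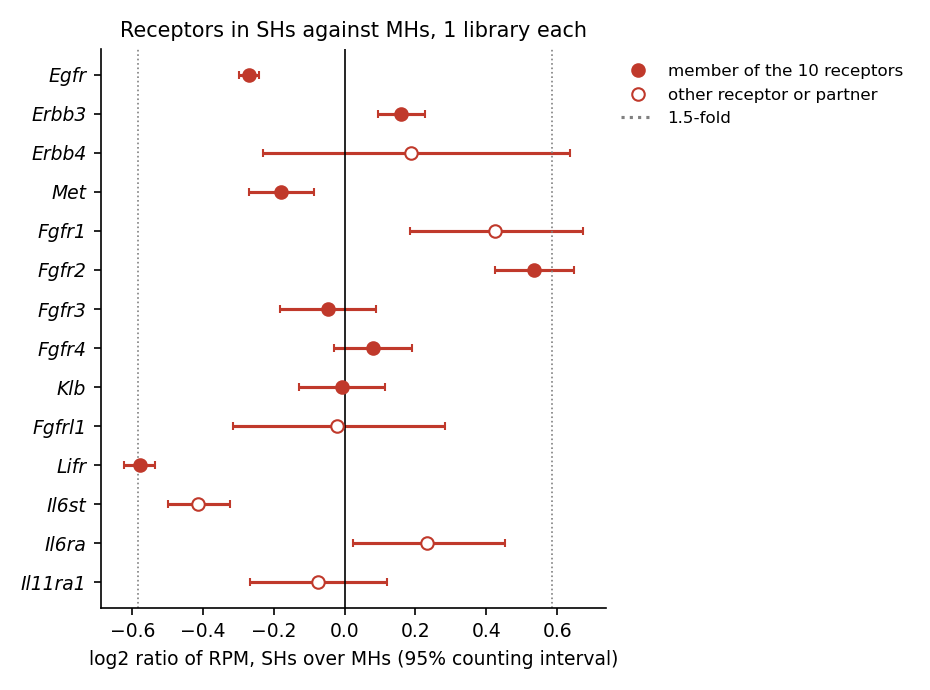
Log2 ratio of RPM in SHs over MHs (x axis) for receptors and partners ordered by family, with the 95% counting interval as bars and 1.5-fold as dotted lines, from 1 library per population. Filled points are the 8 of the 10 receptors with at least 10 reads, open points the other receptors and partners. Lifr (-0.58) and Il6st (-0.41) lie on the left and Fgfr2 (0.54) and Fgfr1 (0.42) on the right, and Fgfr3, Fgfr4 and Klb straddle 0.

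Per exon length, the order in MHs was Egfr (79.8 RPKM), Lifr (35.2), Erbb3 (24.1), Fgfr4 (15.5), Met (10.6), Klb (10.2), Fgfr3 (5.20) and Fgfr2 (4.76). The intervals of Met and Klb overlapped, as did those of Fgfr3 and Fgfr2. In SHs the order was Egfr (66.2 RPKM), Erbb3 (26.9), Lifr (23.6), Fgfr4 (16.4), Klb (10.1), Met (9.38), Fgfr2 (6.90) and Fgfr3 (5.03), and only Klb and Met overlapped. Lifr and Erbb3 thus changed places between the libraries. The gene models limit this order, above all that of Fgfr2, which in GENCODE M21 includes transcripts reaching as far as the gene Ctbp2 and shares 3.04% of its exon bases with it. With the coding length in place of the exon length, Lifr stayed above Erbb3 in SHs, at 77.4 RPKM against 40.4, and Fgfr2 moved up to 17.5 RPKM in MHs and 25.4 in SHs, above Fgfr3 and Klb in both libraries and above Met and Fgfr4 in SHs. A ratio within a gene does not depend on the length. Of the 28 pairs that the 8 receptors form, 22 had a log2 change of their within-library ratio whose interval left out 0. The share for pairs of other genes at a like depth was not computed, and the 28 pairs reuse the same 8 genes. The count therefore does not show a trait particular to the receptors. Egfr alone made up 43.1% of the summed RPKM of the 10 receptors in MHs and 40.2% in SHs.

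**Figure D3:**
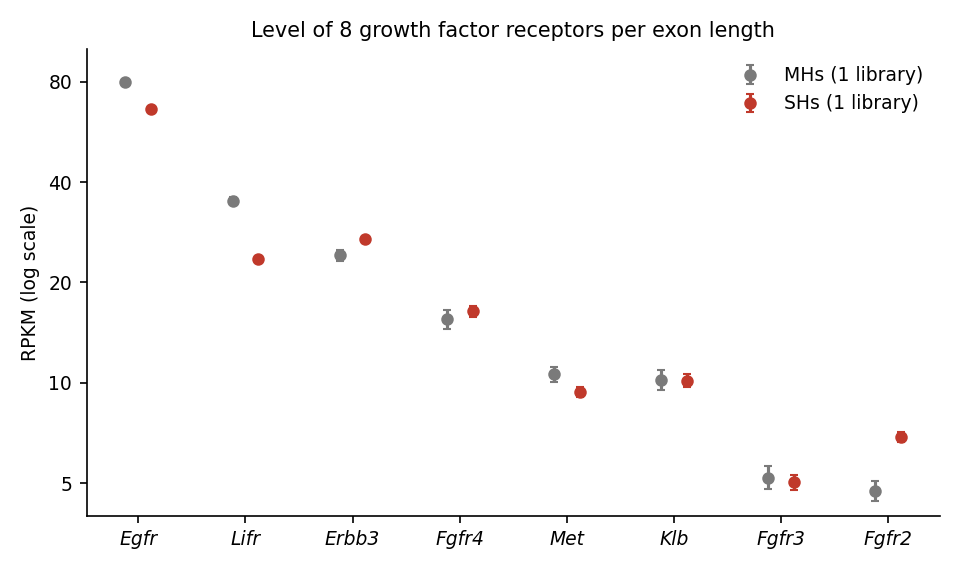
RPKM of the 8 receptors with at least 10 reads (y axis, log scale) in MHs (grey) and SHs (red), 1 library each, ordered by the level in MHs, with bars for the 95% counting interval. Egfr is the highest in both, Lifr stands at 35.2 RPKM in MHs and at 23.6 in SHs, where it is below Erbb3, and Fgfr2 stands at 4.76 in MHs and 6.90 in SHs.

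Promoters are shown for the receptors that the comparison turns on, Egfr as the most abundant, Lifr as the lowest and Fgfr2 as the highest in ratio. The windows are the 250 bases before a RefSeq start in the GRCm38.p6 build, 5′ to 3′ on the strand of the gene, and capitals mark GGGCGG or its reverse complement, the GC box. Egfr lies at chr11:16752203-16913907 on the plus strand and its window at chr11:16751953-16752202, outside its exons. Lifr lies at chr15:7090610-7197489 on the plus strand, and both of its windows are inside that span. The first, at chr15:7129322-7129571, takes in 13 bases of an exon, and the second, at chr15:7140292-7140541, takes in none. Fgfr2 lies at chr7:130162451-130266808 on the minus strand and its window at chr7:130266809-130267058, outside its exons.
Egfr: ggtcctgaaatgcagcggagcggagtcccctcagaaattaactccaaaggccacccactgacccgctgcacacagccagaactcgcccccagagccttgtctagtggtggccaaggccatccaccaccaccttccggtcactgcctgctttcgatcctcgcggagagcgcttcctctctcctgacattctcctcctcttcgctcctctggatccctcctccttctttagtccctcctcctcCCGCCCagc
Lifr, first start: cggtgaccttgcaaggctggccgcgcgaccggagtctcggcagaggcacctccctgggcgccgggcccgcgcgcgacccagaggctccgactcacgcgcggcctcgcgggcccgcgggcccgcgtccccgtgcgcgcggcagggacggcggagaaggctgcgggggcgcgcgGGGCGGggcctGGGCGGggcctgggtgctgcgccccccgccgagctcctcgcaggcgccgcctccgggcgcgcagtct
Lifr, second start: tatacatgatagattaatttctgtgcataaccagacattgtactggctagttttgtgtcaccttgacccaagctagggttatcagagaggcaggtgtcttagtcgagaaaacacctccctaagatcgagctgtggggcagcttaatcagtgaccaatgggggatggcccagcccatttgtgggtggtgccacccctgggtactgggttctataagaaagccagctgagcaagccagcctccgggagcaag
Fgfr2: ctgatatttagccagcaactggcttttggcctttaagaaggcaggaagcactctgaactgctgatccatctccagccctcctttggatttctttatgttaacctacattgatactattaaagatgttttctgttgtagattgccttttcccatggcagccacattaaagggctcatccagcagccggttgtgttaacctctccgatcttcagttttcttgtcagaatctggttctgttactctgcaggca
The first Lifr window held 43 CG dinucleotides, as many as or more than all but 0.712% of the 32851 windows of the RefSeq table, and 2 GC boxes. The second Lifr window held 3 CG dinucleotides, the Fgfr2 window 2 and the Egfr window 11, beside a median of 6 over all windows, and of these the Egfr window alone held a GC box. GGGCGG on either strand was in 32.7% of all windows. The letters TATAAA on either strand were in 12.4% of all windows and the STAT-type letters TTCNNNGAA in 7.02%, and neither was in any of the 12 windows that the table holds for 9 of the receptors. No window was held for Erbb3. A GC box contains a CG dinucleotide and the counts of both therefore overlap. The reads were counted per gene and do not show which start was used.

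The genes that work with the receptors were taken from lists of known function. Of 13 receptors, subunits and co-receptors of the same families, 11 had at least 10 reads. Of these, 3 were lower in SHs, 5 were higher and 3 had intervals that included 0, with a median log2 ratio of 0.10. Beside them, 15.5% of all genes tested were lower and 16.8% higher, and 21.1% and 31.2% of those with at least 1000 reads. The syndecans, heparan sulphate proteoglycans that hold FGFs and HGF at the cell surface, were slightly higher in SHs. Sdc1 stood at 359 RPM in MHs and 413 in SHs (log2 ratio 0.20) and Sdc2 at 136 and 147 (0.11), and Sdc4, with 6664 and 17766 reads, lay 0.10 higher on the log2 scale. Il6ra, the interleukin-6 binding subunit that pairs with gp130, had 240 and 705 reads and a log2 ratio of 0.23 (0.02 to 0.45). For Il11ra1, the interleukin-11 subunit, and Fgfrl1, an FGF receptor without a kinase domain, 0 lay inside the interval. Osmr, the oncostatin M subunit, had 10 and 2 reads and a log2 ratio of -3.39 (-6.87 to -1.41), and Cd44, of which some forms assist MET, 16 and 3, a log2 ratio of -3.56 (-6.15 to -1.93). These levels were under 1 RPM in both libraries, and the endothelial, macrophage and stellate cell markers given above were lower in SHs as well, a difference whose part in these values was not tested.

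Few ligands were detected. Of 11 ErbB ligands, 5 had at least 10 reads and 1 of them, Tgfa, was lower in SHs, beside 15.5% of all genes tested. Tgfa, a ligand of EGFR made by hepatocytes, was counted 237 times in MHs and 483 times in SHs, 14.0 and 11.4 RPM, with a log2 ratio of -0.29 (-0.52 to -0.06). Egf, Btc, Hbegf and Nrg4 had intervals around 0, and Nrg4 had the most reads of these 4, at 5.18 RPM in MHs and 5.93 in SHs. Mst1, which encodes macrophage-stimulating protein, the ligand of RON, stood at 220 RPM in MHs and 206 in SHs (log2 ratio -0.09, interval -0.15 to -0.04). Its receptor gene Mst1r was at or near the limit of detection in the same libraries. Hgf, a product of stellate and other non-parenchymal cells, had 9 and 4 reads, respectively, in MHs and SHs, a log2 ratio of -2.40 (-4.64 to -0.65), and the stellate cell markers were lower in the same library. Of 22 FGF genes, 17 had 0 reads in MHs and 4 had at least 10 reads over both libraries. Fgf1 had the most reads, at 60.0 RPM in MHs and 64.0 in SHs, and its interval included 0. Fgf21, the fasting hormone of the liver, had 26 and 32 reads and a log2 ratio of -1.02 (-1.81 to -0.21), which was -1.82 when the SH library was thinned to the depth of the MH library. Fgf9 had 3 and 26 reads, a log2 ratio of 1.60 (0.09 to 4.16). Fgf2 had 0 and 10 reads, and the interval of its ratio included 0. Of 7 ligands that use LIFR or gp130, 1, the cardiotrophin gene Ctf1, had at least 10 reads, with 33 in MHs and 58 in SHs and an interval of -1.15 to 0.16.

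HGF and macrophage-stimulating protein are secreted as inactive precursors that serum and membrane proteases cleave. Of 12 genes for these proteases, their activators and inhibitors, 7 had at least 10 reads, of which 3 were lower in SHs and 2 higher, beside 15.5% and 16.8% of all genes tested. Over the genes with at least 1000 reads the shares were 21.1% and 31.2%. The genes of a pair of proteases that activate HGF were higher in SHs. Hgfac, the serum HGF activator, stood at 150.4 RPM in MHs and 179.9 in SHs (log2 ratio 0.26, interval 0.19 to 0.32), and Hpn, the membrane protease hepsin, at 180.4 and 227 RPM (0.33, interval 0.27 to 0.39). Klkb1, plasma prekallikrein, was lower, with 249 and 376 reads (-0.73, interval -0.96 to -0.49). Plg, plasminogen, was lower by 0.04 on the log2 scale, and the intervals of F12, coagulation factor XII, and Spint2, an inhibitor of HGF activators, included 0. Of the 4 genes for shedding of membrane-bound EGF family ligands, Adam17, the main sheddase, was lower (305 and 640 reads, -0.25, interval -0.45 to -0.05), and the intervals of Adam10, Rhbdf1 and Rhbdf2 included 0. This 1 lower gene of 4 stands beside 15.5% of all genes tested.

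Downstream of the receptors, in the lists of adaptors and of the RAS-MAPK, PI3K and JAK-STAT pathways, 0 genes were at least 1.5-fold lower or higher with an interval on that side of 0, beside 6.2% and 3.5% of all genes tested and 1.68% and 0.87% of those with at least 1000 reads. The counts that follow stand beside 15.5% of all genes tested lower and 16.8% higher, and 21.1% and 31.2% of those with at least 1000 reads. Of 13 adaptors, 6 were higher in SHs, 0 lower and 7 had intervals that included 0, with a median log2 ratio of 0.12. The adaptors with the most reads were Crk, which was 0.15 higher (0.03 to 0.28), and Ptpn11, which encodes the phosphatase SHP2, at 0.12 (-0.01 to 0.25). Of 12 genes of the RAS-MAPK pathway, 3 were higher and 1 lower, among them Map2k2, which encodes a kinase that activates ERK, at 0.24 (0.14 to 0.34), and Araf, a RAF kinase, as the lower gene. Of 8 genes of the PI3K pathway, 3 were higher, among them Akt2, at 0.14 (0.04 to 0.25), and Pik3r2, and 1 was lower, Pik3r1. Of 5 JAK-STAT genes, Stat3, the transcription factor that gp130 and LIFR activate, was higher, at 71.3 RPM in MHs and 89.8 in SHs (0.33, interval 0.24 to 0.43), while the interval of Jak1, the kinase bound to gp130, included 0. The genes Araf, Pik3r2 and Pik3r1 are named after their values were seen.

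Among 23 feedback inhibitors of these receptors, 20 had at least 10 reads, of which 4 were higher in SHs, 1 was lower and 15 had intervals that included 0, beside 16.8% of all genes tested higher and 15.5% lower. Socs3, the inhibitor that STAT3 induces and that blocks gp130 signalling, had 617 reads in MHs against 4292 in SHs, 36.3 and 101 RPM, a log2 ratio of 1.48 (1.36 to 1.60). Socs3 was thus higher in the library in which Lifr and Il6st were lower, and a link between them was not tested. Errfi1, which encodes the EGFR inhibitor MIG6, stood at 824 RPM in MHs and 890.02 in SHs and was 0.11 higher (0.08 to 0.14). Dusp5, an ERK phosphatase, had 13 and 61 reads (0.87, interval 0.03 to 1.90). Dusp6, another ERK phosphatase that ERK signalling induces, was the lower gene, at 73.2 RPM in MHs and 53.0 in SHs (-0.47, interval -0.57 to -0.37), and Ptpn2, a phosphatase of JAK and STAT proteins, was the remaining higher gene, at 0.34 (0.02 to 0.68). Dusp6 and Ptpn2 are likewise named after their values were seen. Of the growth targets, Ccnd1, which encodes cyclin D1, had 72 and 112 reads and was lower (-0.68, interval -1.12 to -0.23), while the intervals of Myc and of Etv5, an ETS factor that FGF signalling induces, included 0. Of the genes on which FGF15 acts through FGFR4, Cyp8b1, a sterol hydroxylase of bile acid synthesis, was lower (-0.20, interval -0.25 to -0.15) and Nr0b2, the repressor SHP, had an interval that included 0 (-0.11 to 0.07). Cyp7a1, the rate-limiting enzyme of bile acid synthesis, stood at 26.7 RPM in MHs and 6.99 in SHs (-1.93, interval -2.15 to -1.72). These growth and FGF15 targets stand beside 15.5% of all genes tested lower and 16.8% higher. Among those with at least 1000 reads, the shares were 21.1% and 31.2%. The markers of the pericentral zone were lower in the same library, and the part of this in the value of Cyp7a1 was not tested.

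**Figure D4:**
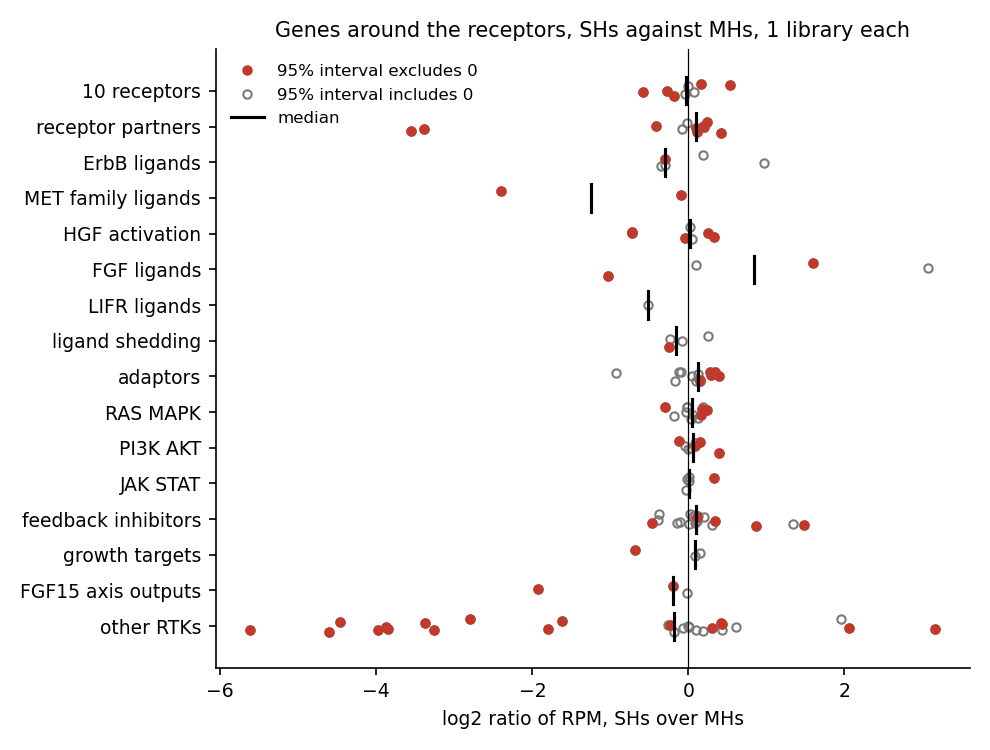
Log2 ratio of RPM in SHs over MHs (x axis) of each gene with at least 10 reads in the lists around the receptors (rows), 1 library per population. Red points have a 95% counting interval that leaves out 0, grey open points include it, and black bars are list medians. The receptors lie between -0.58 and 0.54, and the points under -1 in the lists of partners and other receptor tyrosine kinases (RTKs) had 63 reads or fewer in SHs.

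The other receptor tyrosine kinases were set beside the receptors. Of 50 such genes, which include Fgfr1 and Erbb4, 27 had at least 10 reads, and 12 of them were lower in SHs, 5 higher and 10 had intervals that included 0, beside 15.5% of all genes tested lower and 16.8% higher. At least 1.5-fold lower were 11 of the 27 and at least 1.5-fold higher 2, beside 6.2% and 3.5% of all genes tested. Of the 6 with at least 1000 reads, a depth like that of the 8 receptors examined here, 0 passed the 1.5-fold limit in either direction, as was the case for those 8. The lowest with at least 100 reads were Kdr, the VEGF receptor of endothelial cells, with 226 reads in MHs and 11 in SHs, Flt4, a VEGF receptor of sinusoidal and lymphatic endothelium, with 137 and 15, and Tie1, another endothelial receptor, with 78 and 63. The endothelial markers given above, which include Kdr, were lower too, and their part in these values was not tested. The genes that passed this limit upwards were Ddr1, a collagen receptor, with 3 reads in MHs and 78 in SHs (log2 ratio 3.17, interval 1.78 to 5.69), and Ptk7, a receptor without kinase activity, with 3 and 36 (2.06, interval 0.60 to 4.61), both named after their values were seen. The highest with at least 100 reads were Ror1, with 66 and 223 reads, Fgfr1 and Epha1, an ephrin receptor, with 419 and 1295 reads, at log2 ratios of 0.43, 0.42 and 0.31. The most reads were those of Insr, the insulin receptor, with 2103 reads in MHs and 5214 in SHs, Epha2, Epha1, Ephb4 and Ryk, and the intervals of these 5 included 0 except that of Epha1. The median log2 ratio of the 6 with at least 1000 reads was -0.0023. The interval of Insr was -0.08 to 0.06.

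The genes most like the receptors at either end were sought among the 10941 genes with at least 100 reads, by the distance between the log2 RPM values of both libraries. Nearest to Egfr was Cyp2d10, a cytochrome P450, with 907 RPM in MHs and 745 in SHs, followed by Rnu3a, a small nucleolar RNA gene, and Slc27a2, a fatty acid transporter. Nearest to Lifr were Rnu3b1, Rnu3b2 and Rnu3b4, copies of that small nucleolar RNA, whose reads cannot be assigned with certainty among near-identical genes. Nearest to Fgfr2 were Gss, glutathione synthetase, with 48.5 RPM in MHs and 71.9 in SHs, then Gas2, which encodes a protein of the cytoskeleton, and Irs2, an adaptor of the insulin receptor, with 47.2 and 67.8 RPM. With 1 library of each population, this likeness rests on 2 values per gene.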

How the data were processed

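An Ion Proton system was used to sequence poly(A) RNA of 1 sample of MHs and 1 of SHs. The authors deposited counts, whole numbers of reads per gene symbol without normalization. Their methods describe alignment to mm10 in CLC Genomics Workbench with at most 10 hits per read and at most 2 mismatches. The methods give RPKM from that program. Whether it also made the deposited counts, and with which annotation and strand setting, is not given in the sources used here.

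The receptors and the gene lists were chosen with earlier results of these data known. RPM, log2 ratios and 95% Clopper-Pearson intervals were computed with scipy 1.17.1, pandas 2.3.3 and numpy 2.4.6 under Python 3.11.15, and ratios between genes of the same library with a normal approximation. No p-value was computed. Genes with fewer than 10 reads over both libraries were not called. A minimum of 1000 reads for a deeper background was added after the receptors' reads were seen. Exon lengths came from GENCODE M21, which held 39469 of the 43280 symbols and covered 93.3% (MHs) and 91.6% (SHs) of counted reads. Gene spans and promoters came from RefSeq (GRCm38.p6). The calculation was tested on simulated data. Alternatives were TMM (edgeR 4.0.16, R 4.3.3), DESeq2 1.42.0 size factors, the total without the 10 most abundant genes, 2 added reads, the SH library thinned to the depth of MHs, other read minimums and other fold limits.

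All receptors were named, as were the partners, ligands, HGF proteases, shedding genes, growth targets and FGF15 targets with at least 10 reads. From each other pathway list the genes at least 1.5-fold different and the 2 with the most reads were named. Some genes that this rule names are not reported here. Of the other receptor tyrosine kinases these were the 5 with the most reads and, with at least 100 reads, the 3 lowest and 3 highest. For the most abundant, lowest and highest receptor, the 3 nearest genes were named.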

Additional observations from a re-analysis of the deposited data

How the results depend on the processing

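The log2 ratios of the 8 receptors with at least 10 reads stayed inside their main counting interval under 39 of 40 alternatives of scaling, added reads and depth. The exception was Egfr, whose log2 ratio was -0.24 with the total taken without the 10 most abundant genes. Under the same total the median of the 8 turned from -0.03 to 0.00343. That total moved the ratios up by 0.0315. The lower limit of Fgfr4, -0.0303 in the main setting, thus passed 0, and its interval left out 0. With the lower of the fold limits tried in place of 1.5-fold, 2 receptors passed. The scalings moved the median of all genes tested by at most 0.03 on the log2 scale. Of 615 alternatives for 123 other genes, 612 gave a value inside the main interval. The 3 others were Fgf21 with the SH library thinned, at -1.82, and, with the total without the most abundant genes, Errfi1 at 0.14 and Plg at -0.01, whose interval then included 0. No ratio that was called changed sign. These counts do not ask whether an interval came to include 0 or to leave it out. The 3 scalings moved the log2 ratios up by 0.0091 to 0.0315. Among such cases, Pik3r1, with an upper limit of -0.0053, included 0 under all 3. Ptpn11 and F12 (lower limits -0.0063 and -0.0085) left out 0 under all 3. Fgf1, Hbegf and Rhbdf2 (-0.0102, -0.0132 and -0.0132) did so with the total without the most abundant genes. No paired analysis was possible because each population had 1 library. With 1 library per population, the spread between animals and preparations is unknown, and no alternative bears on it. Depth limits Erbb2 and Mst1r, for which 0 reads in MHs allow up to 0.177 RPM.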
